A study of Mus musculus with 8 samples.

Results

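The response to 4-hydroxytamoxifen (4OHT) within clone 4 was the comparison of 2 libraries of 4OHT-treated clone 4 epiblasts with the 2 vehicle libraries of the same clone. The members were chosen by the clone and treatment labels, which gave 4 of the 8 libraries of the series. The epiblast is the tissue of the early post-implantation mouse embryo that forms the body. Embryos of embryonic day 5.5 with the genotype Sox2Cre;CRAFR26 were held in IVC2 medium, and their extraembryonic layers were cut away before RNA extraction. The 4OHT group received 250 nM 4OHT for 4 h, and the vehicle group received ethanol. Both groups carried Sox2Cre, a Cre recombinase that acts in the epiblast lineage, and the inducible cRAF construct CRAFR26. The mouse line was made from targeted embryonic stem cells, and clone 4 is a single clone of it. Vehicle titles read 0 h, whereas their treatment label gives 4 h in ethanol, so that time in culture cannot be told apart from 4OHT if the titles hold. Each library was built from 10 pooled epiblasts with 7 ng of RNA. Nothing in the labels states whether the pools came from separate litters, so p-values measure the spread between pools.

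cRAF is the kinase that activates MEK, which in turn activates ERK. ERK activity is known to switch on immediate early genes such as Egr1 and, with them, feedback inhibitors such as Sprouty proteins and dual-specificity phosphatases. In the embryo, the epiblast is wrapped by the visceral endoderm, an extraembryonic epithelium that takes up maternal nutrients and secretes lipid carriers under the control of GATA, HNF and FOXA factors.

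The vehicle libraries held 37.96 and 34.56 M counts (M, mega) and the 4OHT libraries 56.4 and 72.5 M. The chi-square of replicate counts per degree of freedom was 23.1 for vehicle and 43.6 for 4OHT, far above 1, so each library was counted as its own sample. The tissue label was checked against 10 epiblast markers. All were tested, with a mean log2 CPM (gene counts scaled to a common library total) of 7.68 and 7.80 in vehicle and 7.45 and 7.35 in 4OHT libraries. Genes of visceral endoderm were present in every library, at a summed level of 3434 and 2639 CPM in vehicle and 7239 and 8140 CPM after 4OHT over 57 genes, although Alb was at 0. Genes of blood and endothelium summed to 44.2 CPM in vehicle replicate 1 and to 14.3 to 14.97 CPM in the other clone 4 libraries. Hemoglobin Hbb-bs reached 11.2 CPM there and was at 0.0595, 0 and 0 CPM in the others. Genes of decidua and stroma summed to 22.95 and 21.2 CPM in vehicle and to 35.8 and 53.4 CPM after 4OHT. Both 4OHT libraries were above both vehicle libraries in 2 of the 7 tested and below in 0, against 23.7% and 23.8% of all tested genes. The 4 Y-linked genes summed to 67.8 and 110.6 CPM in vehicle and to 56.2 and 3.64 CPM in 4OHT libraries, so that 4OHT replicate 2 stood apart.

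The receptor part of the construct was looked for first. Esr1, the gene of estrogen receptor alpha (chr10:4611593-5005614, protein-coding, GRCm38), stood at 0.187 and 0.476 CPM in vehicle and at 6.13 and 6.09 CPM in 4OHT libraries. Both 4OHT libraries were far above both vehicle libraries, with a log2 fold change of 4.21 (SE 0.58). The adjusted p was 0.0589 in edgeR's quasi-likelihood test, just above the threshold of 0.05. In a fit of the clone 4 libraries alone it was 0.0162. Which reads of Esr1 came from the construct was not tested.

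Across genes, 7 of 18321 tested genes rose after 4OHT at an adjusted p under 0.05 and 0 fell, which is 0.0382% and 0% of the genes tested. At an unadjusted p under 0.05, 1140 genes were higher (6.22%) and 674 lower (3.68%). The fit shares its estimate of the spread with the 4 clone 8 libraries. The clone 4 libraries alone gave 183 genes higher (1.09%) and 14 lower (0.0836%) of 16743, and DESeq2 on the 8 libraries gave 382 higher and 86 lower. The 7 genes were also among the calls of both. Without any 1 of the 4 clone 4 libraries, 0 of these 7 genes passed, and the number of genes higher was 0 to 2 and lower 0 to 2. The clone 8 libraries also set the count. It was 0 and 0 without either clone 8 vehicle library, 250 higher and 17 lower without 4OHT clone 8 replicate 1, and 243 higher and 19 lower without 4OHT clone 8 replicate 2.

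The genes that rose encode surface and transport proteins, a transcription factor and a protein of unassigned role. Cldn2 (ENSMUSG00000047230, chrX:139800828-139811386), which forms cation pores in tight junctions, stood at 5.56 and 4.32 CPM in vehicle and at 24 and 31.7 CPM in 4OHT libraries (log2 fold change 2.49, SE 0.27, adjusted p 0.0341). Slc13a4 (chr6:35267957-35308131), a sulfate transporter, stood at 8.91 and 7.11 CPM in vehicle and at 39.8 and 43.5 CPM after 4OHT (log2 fold change 2.38, SE 0.27, adjusted p 0.0356). Slc7a9 (chr7:35448796-35466036), the light chain of a cystine and basic amino acid exchanger, went from 5.002 and 5.09 to 17.2 and 20.3 CPM (log2 fold change 1.89, SE 0.23, adjusted p 0.0479). In each of these 3 genes the lower 4OHT library lay more than 3-fold above the higher vehicle library.

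Both FGF-related genes encode proteins of the cell surface. Fgfr3 (chr5:33721674-33737068), a receptor tyrosine kinase for FGFs, stood at 4.66 and 3.27 CPM in vehicle and at 20.5 and 19.9 CPM after 4OHT (log2 fold change 2.35, SE 0.25, adjusted p 0.0341). Klb (chr5:65348314-65384007), the beta-Klotho coreceptor of endocrine FGFs, stood at 1.98 and 1.64 CPM in vehicle and at 8.95 and 12.2 CPM after 4OHT (log2 fold change 2.55, SE 0.32, adjusted p 0.0481). Tbx3 (chr5:119670669-119684724), a T-box repressor expressed in naive pluripotent cells and in endoderm, had the largest change of the 7, from 19.9 and 10.9 CPM to 92.4 and 135 CPM (log2 fold change 2.89, SE 0.34, adjusted p 0.0414). 2210011C24Rik (chr8:84010222-84012171), a protein-coding gene without an assigned name, went from 3.85 and 2.59 CPM to 16.8 and 22.9 CPM (log2 fold change 2.62, SE 0.28, adjusted p 0.0341). No vehicle library reached any 4OHT library for these genes. Slc7a9 and Klb had adjusted p of 0.0504 and 0.0512 in edgeR with library totals as the scaling, and 0.0517 and 0.0551 with the robust option, so that 5 of the 7 passed under each. Visceral endoderm genes moved with these 7, as the sums above show, and their part in the 7 calls was not tested.

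**Figure D1:**
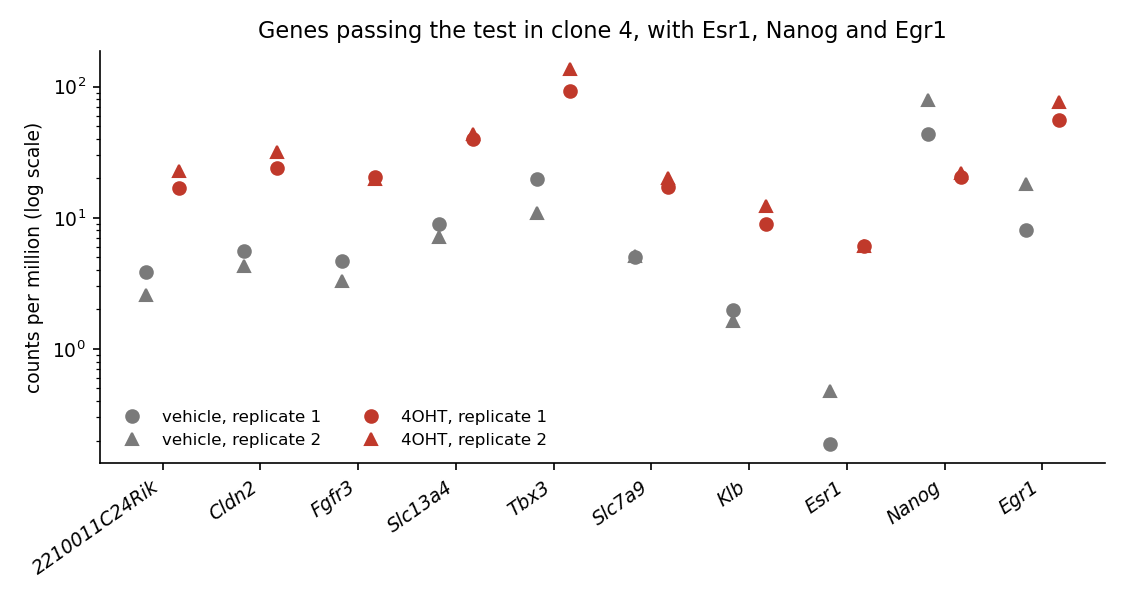
CPM (log axis) of the 7 genes that passed the test, and of Esr1, Nanog and Egr1, in each clone 4 library; grey is vehicle, red is 4OHT, circles are replicate 1 and triangles replicate 2. Every 4OHT point lies above both vehicle points except for Nanog, where both lie below, from 43.3 and 79.0 CPM in vehicle to 20.4 and 22.1 CPM.

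Promoter sequences were read from RefSeq (GRCm38.p6) for the genes that rose, because they moved together. The table held a window for 5 of the 7 genes, and 250 bases upstream of each RefSeq start were searched on both strands for 6 short motifs. These were AGATAA and TGATAA (bound by GATA factors), CAAAGTCC (HNF4), TGTTTAC and TGTTTGC (FOXA) and CCGGAAGT (ETS factors). Only windows with a match are printed, for the called genes Slc7a9 and Klb and for Hnf4a and Dpp4, 2 visceral endoderm genes described next. Hnf4a and Dpp4 are examples from the 7 of 41 visceral endoderm genes with AGATAA. Foxa2 is another of the 7, and its window is not printed. Capitals mark the matches, on either strand, and each window runs 5′ to 3′ on the strand of the gene.
Slc7a9, chr7:35448842-35449091, plus strand: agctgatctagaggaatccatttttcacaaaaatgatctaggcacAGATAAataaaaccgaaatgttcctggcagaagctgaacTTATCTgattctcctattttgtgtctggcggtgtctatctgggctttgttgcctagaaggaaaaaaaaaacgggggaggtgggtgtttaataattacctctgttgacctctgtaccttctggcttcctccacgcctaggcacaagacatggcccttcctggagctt
Klb, chr5:65348161-65348410, plus strand: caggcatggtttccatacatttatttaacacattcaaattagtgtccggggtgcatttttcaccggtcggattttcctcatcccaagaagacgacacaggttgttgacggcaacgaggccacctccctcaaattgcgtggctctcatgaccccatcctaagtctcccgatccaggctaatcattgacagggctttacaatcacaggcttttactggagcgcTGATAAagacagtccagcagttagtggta
Hnf4a, chr2:163506607-163506856, plus strand: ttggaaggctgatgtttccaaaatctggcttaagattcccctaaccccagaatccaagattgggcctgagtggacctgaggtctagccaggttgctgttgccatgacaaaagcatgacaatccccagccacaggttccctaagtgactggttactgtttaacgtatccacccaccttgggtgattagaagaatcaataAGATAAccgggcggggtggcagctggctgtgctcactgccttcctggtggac
Dpp4, chr2:62412232-62412481, minus strand: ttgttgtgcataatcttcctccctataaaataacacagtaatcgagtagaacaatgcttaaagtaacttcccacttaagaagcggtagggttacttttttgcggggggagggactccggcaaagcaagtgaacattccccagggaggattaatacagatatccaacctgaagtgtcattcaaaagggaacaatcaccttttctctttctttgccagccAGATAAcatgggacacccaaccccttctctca

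Slc7a9 held AGATAA on each strand and Klb held TGATAA. By the gene positions given above, which are not from RefSeq, this Slc7a9 window and the Klb match lie inside the genes, downstream of their starts. The window of a second start held no match for Slc7a9 (chr7:35448929-35449178) and none for Hnf4a (chr2:163546905-163547154). Windows of Cldn2, Fgfr3 and Slc13a4 held none of the 6 motifs. AGATAA stood in 7.53% and TGATAA in 4.93% of the 12359 tested genes with a window, and in 7 and 2 of 41 visceral endoderm genes. A gene counted if any of its windows held the letters. CCGGAAGT stood in 6.15% of all genes with a window and in 0 of the 41. CAAAGTCC stood in 1.5% of genes with a window, TGTTTAC in 2.8% and TGTTTGC in 3.81%. Of the 41, these motifs were in 1, 4 and 6. A match describes the letters of the window and nothing about binding.

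Genes of visceral endoderm were examined next. Over 4 lists together, 55 of 57 genes were tested, and 46 had both 4OHT libraries above both vehicle libraries, against 23.7% of all tested genes; 0 had both below, against 23.8%. Their median log2 fold change was 1.65, against 0.00 over all tested genes. At an unadjusted p under 0.05, 43 were higher, against 6.22% of all tested genes. None passed the adjusted threshold in the fit of 8 libraries. In the fit of clone 4 alone 22 of 54 did so, all of them higher, against 1.09% of all genes higher in that fit. The mean log2 CPM was 3.98 and 3.31 in vehicle and 5.12 and 5.19 in 4OHT libraries, so that vehicle replicate 2 was lowest. Leaving out 1 clone 4 library gave medians of 1.36 to 2.00. In such bulk pools, more cells of a type and more RNA per cell cannot be told apart. How completely the layer was removed from each pool was not measured.

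The endoderm transcription factors had a median of 1.92 over 10 genes (1.40 without vehicle replicate 2 and 2.77 without vehicle replicate 1). Of the 10, 9 were higher in both 4OHT libraries than in both vehicle libraries, against 23.7% of all tested genes. Hnf4a, a nuclear receptor that governs lipid transport genes, stood at 6.15 and 2.29 CPM in vehicle and at 26.1 and 24.7 CPM after 4OHT (log2 fold change 2.58, SE 0.43, adjusted p 0.0658). Vehicle replicate 1 held more of it than vehicle replicate 2, and both 4OHT libraries were above both. Sox17 stood at 22.6 and 10.2 CPM in vehicle and at 67.2 and 78.8 CPM after 4OHT, with an adjusted p of 0.0849. Sox7, its relative, stood at 8.21 and 4.46 CPM and then at 35.03 and 39.96 CPM. Gata4, a zinc finger factor of endoderm, went from 17.1 and 4.53 CPM to 67.0 and 56.6 CPM (log2 fold change 2.51, SE 0.57), and the vehicle libraries themselves differed widely. Gata6 (2.03 and 0.476 CPM in vehicle, 2.87 and 2.08 CPM after 4OHT) did not separate as far, and Foxa1 overlapped, at 1.42 and 0.447 CPM in vehicle and 2.06 and 1.42 CPM after 4OHT. Foxa2 lay between, with 6.74 and 2.23 CPM against 17.7 and 11.3 CPM.

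The 21 tested genes of secreted carriers had a median of 1.71. Both 4OHT libraries were above both vehicle libraries in 19 of them, against 23.7% of all tested genes. Apoe, a lipoprotein component made in large amounts, stood at 704 and 627 CPM in vehicle and at 1380 and 1760 CPM after 4OHT, a log2 fold change of 1.24 (SE 0.29). Apom, a carrier of sphingosine phosphate, stood at 59.6 and 47.0 CPM and then at 210 and 213 CPM (log2 fold change 1.99, SE 0.36, adjusted p 0.0816). Mttp, which loads lipid onto apolipoprotein B, went from 36.1 and 25.4 CPM to 109 and 135 CPM, with an adjusted p of 0.0658. In these 3 genes the gap between the groups was wider than the spread within either group. Fgb, the fibrinogen beta chain, stood at 7.28 and 3.25 CPM in vehicle and at 21.9 and 36.0 CPM in 4OHT libraries. Ttr, which carries thyroid hormone and retinol-binding protein, stood at 83.0 and 55.9 CPM and then at 219 and 232 CPM. Afp, the fetal serum protein of yolk sac endoderm, had 29.6 and 10.2 CPM against 48.8 and 82.6 CPM. Apoc1 showed no separation, at 24.7 and 25.6 CPM in vehicle and 23.2 and 29.1 CPM after 4OHT.

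Uptake and lysosomal genes had a median of 1.68 over 14 genes. Both 4OHT libraries were above both vehicle libraries in 12 of the 14, against 23.7% of all tested genes. Cubn, the endocytic receptor cubilin, stood at 39.5 and 30.1 CPM in vehicle and at 143 and 205 CPM after 4OHT (log2 fold change 2.32, SE 0.38). Amn, the membrane anchor of cubilin, went with it, from 85.0 and 60.1 CPM to 274 and 339 CPM (log2 fold change 2.08, SE 0.34). Dab2, the adaptor that links such receptors to clathrin, stood at 272 and 187 CPM and then at 896 and 1211 CPM. Dpp4, a peptidase of the apical surface, had 22.5 and 13.9 CPM in vehicle and 88.0 and 119 CPM after 4OHT, with an adjusted p of 0.0658. Lrp2, the large receptor megalin that acts with cubilin, differed less, at 59.1 and 45.2 CPM against 85.0 and 107 CPM (log2 fold change 0.88, SE 0.17, adjusted p 0.0942). Lrp1 (18.6 and 17.03 CPM in vehicle, 16.0 and 17.4 CPM after 4OHT) and the retinol receptor Stra6 (4.76 and 3.66 CPM, then 4.02 and 4.20 CPM) overlapped between the groups.

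The genes of the anterior visceral endoderm, a signalling centre that secretes Nodal and Wnt antagonists, had a lower median of 0.87 over 10 genes, and 6 of 10 had both 4OHT libraries above both vehicle libraries, against 23.7% of all tested genes. The median was 1.40 without vehicle replicate 1 and 0.53 without vehicle replicate 2. Lhx1, a LIM homeodomain factor, stood at 25.1 and 7.32 CPM in vehicle and at 52.4 and 37.5 CPM after 4OHT. Dkk1, a secreted Wnt inhibitor, stood at 17.7 and 9.67 CPM and then at 21.8 and 42.0 CPM. Cer1, a Nodal antagonist, had 25.8 and 10.1 CPM in vehicle and 32.3 and 34.0 CPM after 4OHT. The Nodal antagonist Lefty1 overlapped, at 61.8 and 75.1 CPM against 90.5 and 40.8 CPM, and its log2 fold change was -0.06 (SE 0.38). Of the 10 genes, 5 were higher at an unadjusted p under 0.05, against 6.22% of all tested genes. The median of the 10 was 0.66 without 4OHT replicate 1.

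**Figure D2:**
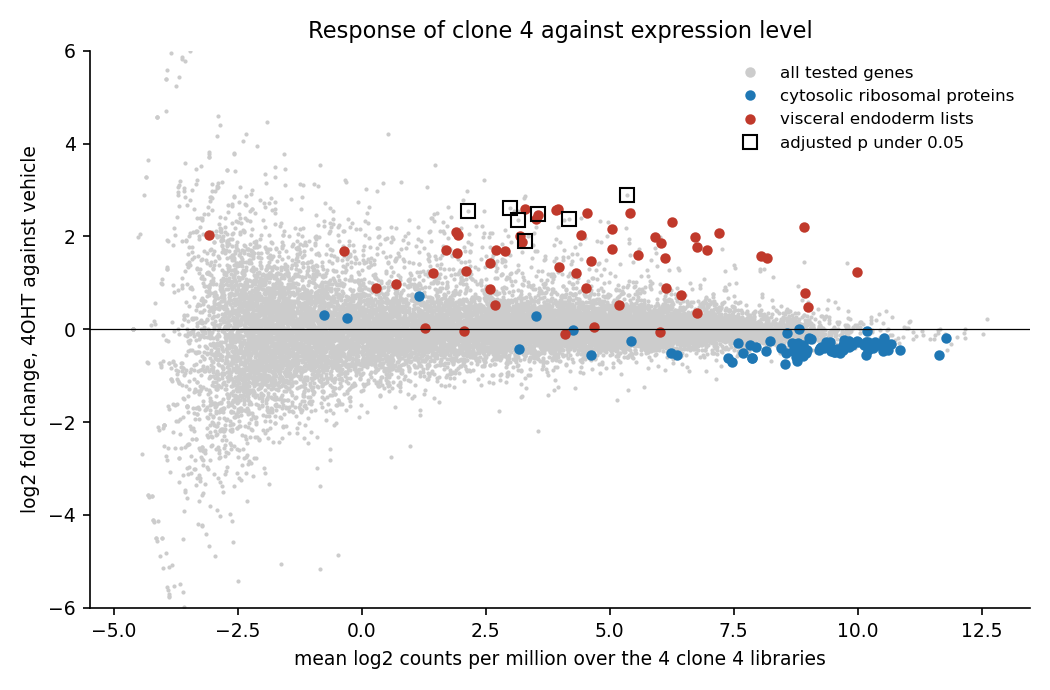
Log2 fold change of 4OHT against vehicle in clone 4 by mean log2 CPM over the 4 libraries, for each tested gene (grey), with the visceral endoderm lists in red, ribosomal protein genes in blue and the 7 called genes as open squares; 34 genes beyond 6 in size are not drawn. The red points lie mostly between 1 and 3, and the blue points lie as a narrow band below 0, with a median of -0.37.

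Transport and vesicle families, taken by gene symbol, held further genes on the higher side. Over all tested genes, 23.7% had both 4OHT libraries above both vehicle libraries and 23.8% had both below. Of 11 tested cathepsins, the proteases of the lysosome, 7 had both 4OHT libraries above both vehicle libraries and 1 had both below, with a median log2 fold change of 0.77. Ctsb stood at 303 and 283 CPM in vehicle and at 706 and 892 CPM after 4OHT (log2 fold change 1.45, SE 0.22, adjusted p 0.0658), and Ctsz at 191 and 161 CPM and then at 386 and 486 CPM. Among 298 solute carriers the median was 0.16. Both 4OHT libraries were above both vehicle libraries in 122 of them and below in 39. Of the 298, 2 were called higher, against 0.0382% of all tested genes. Slc7a8, a neutral amino acid exchanger, stood at 33.5 and 26.9 CPM in vehicle and at 99.7 and 134 CPM after 4OHT (adjusted p 0.0666). Slc23a1, which carries ascorbate, stood at 9.10 and 8.72 CPM and then at 24.4 and 27.3 CPM.

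The Rab family by symbol held 67 tested genes, Rab GTPases, which are switches of vesicle traffic, and other symbols such as Rab11fip5. Of the 67, 25 did not overlap in the higher direction and 10 in the lower, against 23.7% and 23.8% of all tested genes. The median was 0.12 (0.06 without 4OHT replicate 1). Rab17, an epithelial member, stood at 1.85 and 1.22 CPM in vehicle and at 5.76 and 7.24 CPM after 4OHT. Subunits of the vacuolar ATPase, which acidifies lysosomes, had 12 of 19 higher and 3 lower by that rule. Atp6v0a1 stood at 73.6 and 65.6 CPM and then at 136 and 143 CPM, with a log2 fold change of 1.005 (SE 0.22). Of 38 ABC transporters, 16 were higher and 5 lower by the same rule, and Abcc2, an apical exporter of organic anions, stood at 4.89 and 2.59 CPM in vehicle and at 18.5 and 25.3 CPM after 4OHT. Claudins had a median of 0.01 over 15 genes, with Cldn2 as the single call, against 0.0382% of all tested genes called higher. Keratins, integrins and collagens had medians of -0.10, -0.04 and 0.00. These 4 medians lay between -0.20 and 0.29 when 1 clone 4 library was left out.

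Basement membrane genes had a median of 0.48 over 13 genes (0.31 without vehicle replicate 2), and 8 of 13 did not overlap in the higher direction, against 23.7% of all tested genes, and 2 in the lower, against 23.8%. Col4a1 and Col4a2, which encode the chains of type IV collagen and lie head to head, stood at 36.4 and 31.2 CPM and at 29.8 and 23.1 CPM in vehicle. After 4OHT, Col4a1 stood at 94.99 and 95.7 CPM (log2 fold change 1.49, SE 0.25, adjusted p 0.0663) and Col4a2 at 85.7 and 90.8 CPM (1.74, SE 0.32, adjusted p 0.0816). Serpinh1, the collagen chaperone, stood at 185 and 154 CPM and then at 353 and 477 CPM. Sparc, a secreted matrix protein abundant in parietal endoderm, went from 149 and 150 CPM to 227 and 226 CPM. Thbd, a marker of parietal endoderm, had 1.34 and 0.655 CPM in vehicle and 0.610 and 0.0556 CPM after 4OHT. Thbd was thus below in both 4OHT libraries, where Sparc was above, but it was low in level (log2 fold change -1.60, edgeR adjusted p 0.783). Of the 5 parietal endoderm markers, which include Sparc, Thbd and Col4a1, 4 were higher and 1 lower without overlap. Over all tested genes these shares were 23.7% and 23.8%. The median of the 5 was 0.60 (0.44 without vehicle replicate 2).

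The largest differences upward among well-expressed genes, chosen by size with no overlap between groups, also named Pdgfra, Creb3l3, Car7 and Tfec. Pdgfra, a receptor tyrosine kinase of primitive and extraembryonic endoderm, stood at 4.92 and 2.62 CPM in vehicle and at 20.1 and 35.01 CPM after 4OHT (log2 fold change 2.87, SE 0.68, adjusted p 0.166). Creb3l3, a membrane-bound factor that drives apolipoprotein genes in liver, stood at 3.61 and 3.69 CPM and then at 19.96 and 31.55 CPM (2.82, SE 0.47, adjusted p 0.0658). Car7, a carbonic anhydrase, stood at 19.4 and 16.8 CPM in vehicle and at 92.4 and 123 CPM after 4OHT (2.57, SE 0.51). Tfec, a bHLH relative of the lysosomal regulator Tfeb, had 4.98 and 2.23 CPM in vehicle and 17.6 and 24.6 CPM after 4OHT (2.54, SE 0.40). Each passed in the fit of clone 4 alone, with adjusted p of 0.0328, 0.0153, 0.00778 and 0.0410. They were chosen by size in the same libraries, so this is not separate support. None passed in the edgeR fit of 8 libraries, where the adjusted p was 0.105 for Car7 and 0.0658 for Tfec.

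Genes downstream of ERK were then examined. The 24 immediate early genes had a median log2 fold change of 0.08 (0.01 without 4OHT replicate 1); 6 were higher and 4 lower without overlap, near the 23.7% and 23.8% of all tested genes. Egr1 stood at 8.05 and 18.2 CPM in vehicle and at 55.4 and 75.9 CPM after 4OHT (log2 fold change 2.32, SE 0.64, adjusted p 0.234). In the fit of clone 4 alone its adjusted p was 0.0484. Its relatives were lower in level, with Egr2 at 0.187 and 0.595 CPM against 1.06 and 1.26 CPM and Egr3 at 0.0267 and 0.179 CPM against 0.753 and 0.625 CPM. Fos and Fosl1, of the AP-1 factors, were lower in both 4OHT libraries than in both vehicle libraries. Fos stood at 19.9 and 16.4 CPM in vehicle and at 10.5 and 12.4 CPM after 4OHT, and Fosl1 at 32.8 and 22.6 CPM and then at 17.9 and 18.8 CPM, with adjusted p of 0.750 and 0.550.

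Feedback inhibitors of ERK signalling had a median of 0.09 over 17 genes, with 7 higher and 1 lower without overlap, against 23.7% and 23.8% of all tested genes. The median was -0.04 without 4OHT replicate 1 and 0.23 without 4OHT replicate 2. Dusp4, a nuclear phosphatase of ERK, stood at 43.1 and 49.7 CPM in vehicle and at 75.2 and 108 CPM after 4OHT (log2 fold change 0.98, SE 0.25, adjusted p 0.192). Spry2 stood at 89.2 and 89.4 CPM and then at 115 and 158 CPM (0.61, SE 0.17, adjusted p 0.241), and its log2 fold change was 0.36 without 4OHT replicate 2. Dusp6, the cytoplasmic ERK phosphatase, differed little, at 212 and 212 CPM in vehicle and 257 and 215 CPM after 4OHT (0.15, SE 0.17). Among 15 ETS factors the median was 0.01 (0.13 without vehicle replicate 1). Etv1 stood at 33.1 and 44.1 CPM in vehicle and at 19.3 and 21.2 CPM after 4OHT (log2 fold change -0.93, SE 0.17, adjusted p 0.0904). Etv5 stood at 359 and 373 CPM and then at 332 and 315 CPM (-0.18, SE 0.18).

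Of the 14 tested FGF ligands and receptors, 2 were called higher, Fgfr3 and Klb given above, against 0.0382% of all tested genes. Of the 14, 6 genes were higher and 3 lower without overlap, against 23.7% and 23.8% of all tested genes. The median was 0.27 (0.12 without 4OHT replicate 1). Fgfr4 stood at 20.4 and 10.6 CPM in vehicle and at 27.3 and 25.4 CPM after 4OHT. Fgf10 stood at 6.21 and 2.65 CPM and then at 12.8 and 11.6 CPM, while Fgf15, a ligand of the endocrine FGF group, stood at 57.4 and 64.7 CPM in vehicle and at 40.8 and 48.5 CPM after 4OHT. The 17 kinases and adaptors from Ras to ERK had log2 fold changes between -0.40 and 0.37, with 0 at an unadjusted p under 0.05.

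Genes of the epiblast itself were lower by smaller amounts. Of the 10 epiblast markers, 7 had both 4OHT libraries below both vehicle libraries and 1 had both above. Over all tested genes these shares were 23.8% and 23.7%. The median was -0.24, and -0.32 to -0.20 with 1 library left out. At an unadjusted p under 0.05, 5 were lower, against 3.68% of all tested genes. Nanog, a homeodomain factor of pluripotent cells, stood at 43.3 and 79.0 CPM in vehicle and at 20.4 and 22.1 CPM after 4OHT (log2 fold change -1.52, SE 0.37, adjusted p 0.173). Pou5f1, the gene of Oct4, stood at 580 and 695 CPM and then at 495 and 435 CPM (-0.46, SE 0.14, adjusted p 0.294). Sox2, its partner, stood at 15.1 and 15.4 CPM in vehicle and at 11.2 and 10.1 CPM after 4OHT (-0.52, SE 0.18). These 3 genes did not overlap between the groups, yet none passed the adjusted threshold. Fgf5, a marker of the post-implantation epiblast, was close in all libraries, at 214 and 220 CPM against 199 and 212 CPM, and Dnmt3b stood at 2830 and 3188 CPM against 2785 and 2437 CPM.

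Members of the pluripotency lists did not share a direction. Among 16 formative and primed genes the median was -0.07, and it was 0.03 without vehicle replicate 2. The 13 naive genes had a median of 0.21 (0.09 without vehicle replicate 2 and 0.46 without vehicle replicate 1). Tbx3 was the single call among them, against 0.0382% of all tested genes called higher, and Esrrb stood at 74.2 and 63.7 CPM against 77.9 and 79.9 CPM. Core factors had a median of -0.11 over 8 genes (-0.20 without vehicle replicate 2). Streak genes had a median of 0.00 over 11 genes (-0.09 without 4OHT replicate 2 and 0.31 without vehicle replicate 1), with Mixl1, a homeobox gene of the streak, at 22.4 and 7.59 CPM in vehicle and at 69.7 and 42.8 CPM after 4OHT (1.90, SE 0.60, adjusted p 0.300; 2.89 without vehicle replicate 1). Lefty2, a Nodal target and antagonist, stood at 29.1 and 17.9 CPM and then at 10.7 and 8.45 CPM (-1.30, SE 0.41, adjusted p 0.308).

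Extraembryonic ectoderm genes, which mark the other layer taken off at dissection, had a median of 0.13 over 16 genes, with 7 higher and 4 lower without overlap, against 23.7% and 23.8% of all tested genes. The median was -0.12 without vehicle replicate 2 and 0.33 without vehicle replicate 1. Their mean log2 CPM was 5.10 and 4.42 in vehicle and 4.70 and 4.73 after 4OHT, so that vehicle replicate 1 was highest. Hand1, a trophoblast and mesoderm factor, stood at 103 CPM in that library, 35.2 CPM in the other vehicle library and 26.5 and 29.5 CPM after 4OHT, with a log2 fold change of -1.31 that was -0.33 without vehicle replicate 1. Ascl2, a trophoblast factor, had the same shape, with 21.0 and 8.42 CPM against 7.87 and 6.41 CPM. Bmp8b stood at 59.4 and 58.9 CPM in vehicle and at 39.4 and 33.6 CPM after 4OHT. The other way, Cdx2 stood at 69.8 and 47.4 CPM and then at 78.9 and 83.7 CPM.

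**Figure D3:**
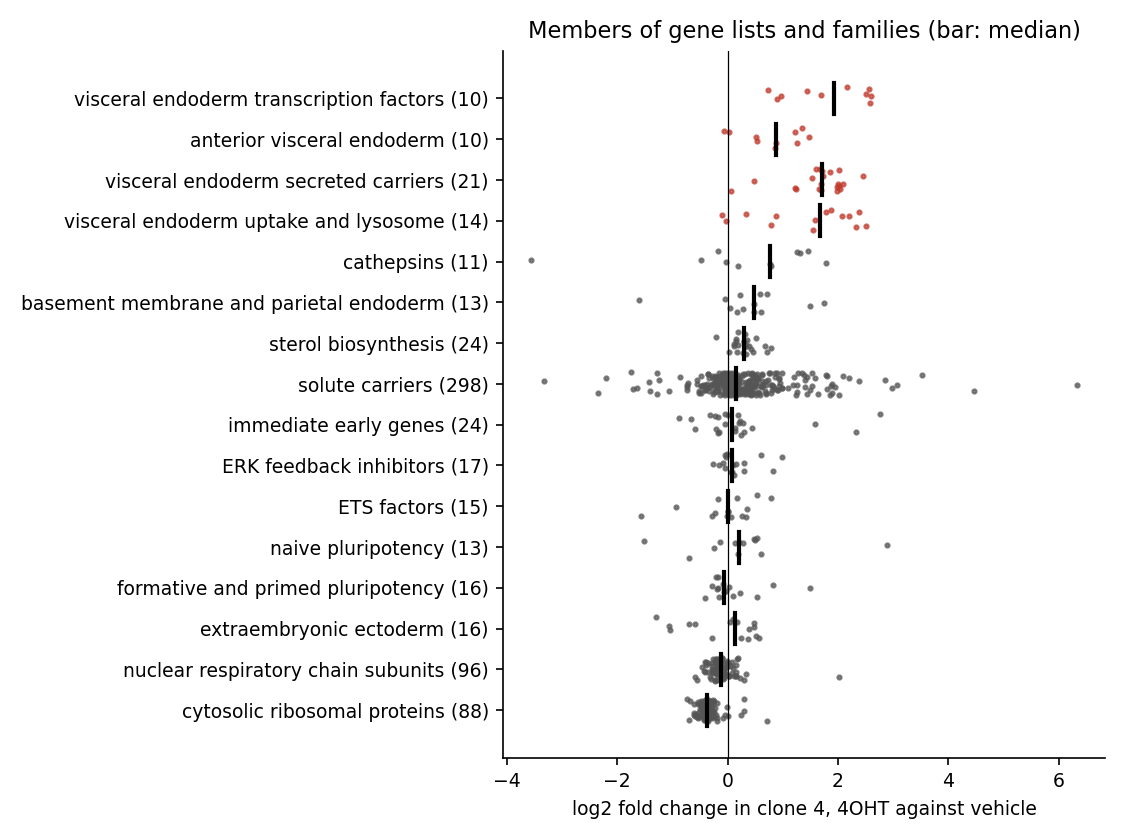
Log2 fold change of 4OHT against vehicle in clone 4 for the tested members (points) of gene lists and families, with the median of each as a black bar and the number of members in brackets. The 4 visceral endoderm lists in red have medians of 0.87 to 1.92, the ERK-related lists lie at 0.01 to 0.09, and ribosomal protein genes lie at -0.37.

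Ribosomal protein genes were then compared. Of 88 tested genes of cytosolic ribosomal proteins, 78 had both 4OHT libraries below both vehicle libraries, against 23.8% of all genes, and 2 had both above. Their share of all counts was 7.10% (95% Wilson interval 7.092 to 7.108%) and 7.56% (7.547 to 7.565%) in vehicle and 6.10% (6.098 to 6.110%) and 5.44% (5.430 to 5.440%) after 4OHT. The intervals cover counting error only. The median log2 fold change was -0.37, and none passed the adjusted threshold in the fit of 8 libraries. In the fit of clone 4 alone 4 passed, all lower, against 0.0836% of all genes lower in that fit. At an unadjusted p under 0.05 there were 56 lower and 1 higher, against 3.68% and 6.22% of all tested genes. The median was -0.29 without vehicle replicate 2 and -0.29 without 4OHT replicate 2. Rpl34 stood at 459 and 507 CPM in vehicle and at 303 and 274 CPM after 4OHT (log2 fold change -0.74, SE 0.12, adjusted p 0.0658). Rps27 stood at 599 and 561 CPM and then at 406 and 375 CPM (-0.57, SE 0.13, adjusted p 0.158). Counts of such genes are uncertain, because they have many near-identical pseudogene copies.

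Short genes were also lower, by a smaller amount. The ribosomal protein genes, with their median of -0.37, had a median exon length of 1730 bases. Over all tested genes the median log2 fold change was -0.07 in the shortest 20% (up to 1728 bases). It was -0.03 in the next 20% (1729 to 2998 bases) and 0.01 in the longest 20%. The part of length in the ribosomal result was not tested. Subunits of the respiratory chain encoded in the nucleus, at a median length of 1525 bases, had a median of -0.13 on that scale, and 57 of 96 were lower and 8 higher without overlap, against 23.8% and 23.7% of all tested genes. Mitochondrial ribosomal proteins had a median of -0.08, with 40 of 80 lower and 5 higher by that rule, and proteasome subunits a median of -0.10, with 26 of 44 lower and 7 higher. These were -0.05 and -0.06 without vehicle replicate 2. Histone genes had a median of -0.40 (-0.24 without vehicle replicate 2), with 29 of 61 lower and 5 higher, and their near-identical copies make these counts uncertain. Cox7a2l, which joins respiratory complexes, stood at 171 and 201 CPM in vehicle and at 142 and 142 CPM after 4OHT (-0.39, SE 0.12). Cell cycle genes had a median of -0.13 (-0.06 without vehicle replicate 2), with 13 of 22 lower and 0 higher without overlap, and 0 at an unadjusted p under 0.05.

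The largest differences downward among well-expressed genes were Eif2s3y, Nanog, Gm13841, Hand1, Lefty2, Gm3511, Gm3699, Hist1h2ae, Zfp608 and Nme2. Eif2s3y, a translation factor on the Y chromosome, stood at 25.9 and 47.2 CPM in vehicle and at 15.1 and 1.001 CPM after 4OHT, and moved with the Y-linked genes of 4OHT replicate 2. Gm3699, a predicted gene, stood at 70.7 and 88.1 CPM and then at 34.2 and 32.7 CPM (log2 fold change -1.25, SE 0.19, adjusted p 0.0658). Gm3511 stood at 31.3 and 30.3 CPM in vehicle and at 14.9 and 10.7 CPM after 4OHT, and Gm13841 at 14.4 and 16.4 CPM and then at 6.73 and 4.72 CPM. Each of these predicted genes passed in the fit of clone 4 alone, with adjusted p of 0.0183, 0.0422 and 0.0466. They too were chosen by size in the same libraries, so this is not separate support. None passed in the edgeR fit of 8 libraries, where the adjusted p was 0.0942 for Gm3511 and 0.0830 for Gm13841. Nme2, a nucleoside diphosphate kinase, had 18.4 and 25.7 CPM against 10.7 and 9.83 CPM, Zfp608 had 10.2 and 12.2 CPM against 6.06 and 4.06 CPM, and the histone gene Hist1h2ae had 14.8 and 14.0 CPM against 8.54 and 4.16 CPM.

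Metabolic lists were mixed. In sterol biosynthesis, 23 of 24 genes had a log2 fold change above 0, with a median of 0.30, and 16 were higher and 1 lower without overlap, against 23.7% and 23.8% of all tested genes. Ebp, a sterol isomerase, stood at 30.3 and 28.8 CPM in vehicle and at 47.3 and 54.7 CPM after 4OHT (0.79, SE 0.16, adjusted p 0.101). The median was 0.10 without 4OHT replicate 2. Glycolysis genes had a median of -0.14 (-0.06 without vehicle replicate 2), with 10 of 20 lower and 2 higher. Slc2a3, a high-affinity glucose transporter, stood at 503 and 591 CPM in vehicle and at 1153 and 1807 CPM after 4OHT (log2 fold change 1.44, SE 0.27, adjusted p 0.0932), while its relative Slc2a1 stood at 459 and 512 CPM and then at 387 and 408 CPM. Ldhb, a lactate dehydrogenase subunit, stood at 269 and 285 CPM in vehicle and at 171 and 191 CPM after 4OHT (-0.61, SE 0.15). Imprinted genes had a median of 0.34 over 17 genes, with H19, a maternally expressed RNA, at 135 and 108 CPM against 226 and 251 CPM (0.97, SE 0.18, adjusted p 0.0816).

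Clone 4 was set beside clone 8, which has its own vehicle libraries. The response of clone 4 minus that of clone 8 passed an adjusted p under 0.05 for 519 genes, of which 321 were above 0 (1.75% of genes tested) and 198 below (1.08%). All 7 called genes of clone 4 were among the 321, with differences of 2.16 (Fgfr3) to 3.87 (Slc13a4) and adjusted p of 0.0122 to 0.0276. These 7 were chosen by their response in clone 4, which is itself part of this difference. Their passing is therefore not separate support. Of the 55 visceral endoderm genes, 22 passed above 0 and 0 below, and their median log2 fold change in clone 8 was -0.68. The levels were 4.81 and 4.85 mean log2 CPM in the vehicle and 3.31 and 4.48 in the 4OHT libraries of clone 8, so that clone 8 vehicle stood above clone 4 vehicle. The part of this vehicle difference in the result was not tested. The number of genes that passed was 0 without vehicle clone 8 replicate 1, 4OHT clone 4 replicate 1 or 4OHT clone 4 replicate 2, and 21, 17 and 327 without vehicle clone 4 replicate 1, vehicle clone 4 replicate 2 and vehicle clone 8 replicate 2. It was 1205 and 880 without 4OHT clone 8 replicate 1 and replicate 2.

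Other genes differed between the clones in the opposite sense. Fos had a response of -0.66 in clone 4 and 2.61 in clone 8 on the log2 scale, and the difference of -3.26 passed with an adjusted p of 0.0476. Fosl1 differed by -2.66 (adjusted p 0.0262), and Egr1, at 2.32 in clone 4 and 5.25 in clone 8, differed by -2.93 (adjusted p 0.108). Esr1 had log2 fold changes of 4.21 and 3.79, a difference of 0.42 that did not pass (adjusted p 0.783). For ribosomal protein genes the medians were -0.37 in clone 4 and -0.77 in clone 8. In the test of the difference 1 of 88 genes passed, above 0, against 1.75% of all tested genes.

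**Figure D4:**
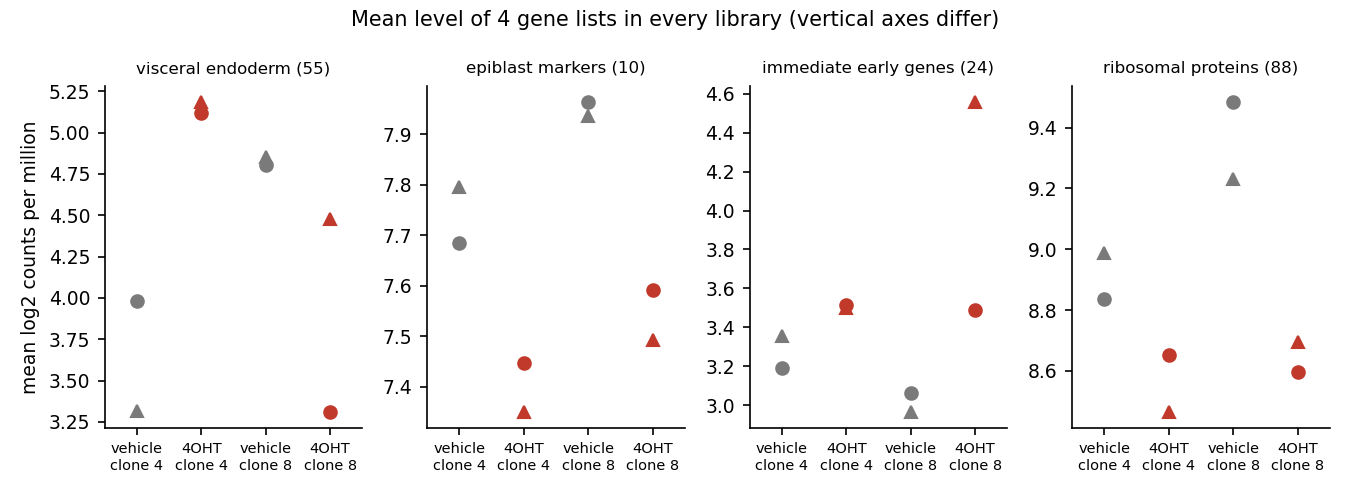
Mean log2 CPM of 4 gene lists in each of the 8 libraries (grey vehicle, red 4OHT, circles replicate 1, triangles replicate 2; the number of genes is in brackets and the vertical axes differ). Visceral endoderm genes go from 3.98 and 3.31 up to 5.12 and 5.19 in clone 4 and from 4.81 and 4.85 down to 3.31 and 4.48 in clone 8, while ribosomal protein genes are lower after 4OHT in both clones.

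Agreement of the replicates was examined last. Over all tested genes, the median absolute log2 fold change between treatments was 0.25, from groups of 2 libraries each. The median absolute log2 difference was 0.23 between the vehicle replicates and 0.24 between the 4OHT replicates. Those are differences between single libraries, which carry more noise, so they are not a like measure for the 0.25. The replicates had a Pearson correlation of log2 CPM across genes of 0.981 in vehicle and 0.980 in 4OHT. The difference between the libraries numbered 1 and that between the libraries numbered 2, which share no library, had a Pearson correlation across genes of 0.289 and the same sign in 64.0% of genes. Among the 9159 genes above the median level these were 0.601 and 69.7%. Genes are not independent replicates, and the numbers need not pair the pools. For visceral endoderm genes, both differences were above 0 in 50 of 55 and both below in 0. Both were below 0 in 79 of 88 ribosomal protein genes, and both above in 2.

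**Figure D5:**
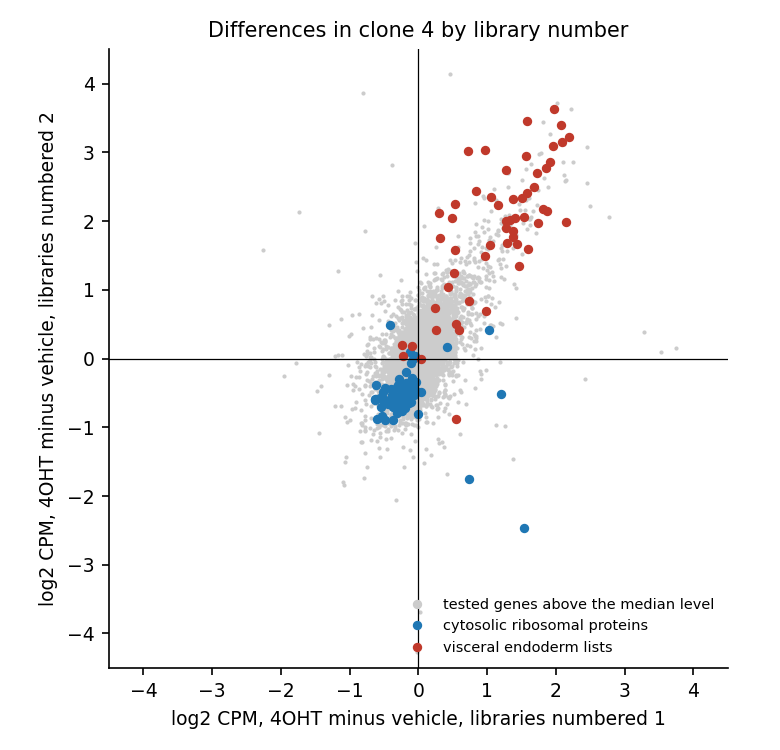
Log2 CPM of 4OHT minus vehicle for the libraries numbered 1 (horizontal) and numbered 2 (vertical) of clone 4, for tested genes above the median level (grey, 4 beyond 4.5 not drawn), visceral endoderm genes (red) and ribosomal protein genes (blue). Of the 55 red points, 50 lie above 0 on both axes, and of the 88 blue points, 79 lie below 0 on both.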

How the data were processed

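The authors deposited raw counts per Ensembl gene, as whole numbers with differing library totals, in 1 table of the 8 libraries. The submitters' processing notes name mm10, STAR 2.5.3a and bcl2fastq 2.19.1 without a role; the counting program, annotation and strand are not given in the sources used here, so overlapping, antisense and near-identical genes are uncertain. Symbols matched 52403 of 52636 identifiers, and the others held at most 0.0325% of counts. Counts were tested with edgeR 4.0.16 in R 4.3.3 (filterByExpr with a minimum count of 10, TMM, glmQLFit and glmQLFTest, legacy option at its default) over 4 groups, with Benjamini-Hochberg adjustment over all tested genes. The call threshold was an adjusted p under 0.05, and an SE is the log2 fold change divided by the square root of F. CPM values are per TMM-scaled total, log2 CPM used a prior count of 2, and the procedure was tested on simulated data. The libraries, the 32 gene lists and 26 families were chosen with earlier results of these data known, and families can include pseudogenes. Genes were named if called, among the 10 largest changes each way of well-expressed genes without overlap (unadjusted p under 0.05), among the 4 lowest p of a list, or as members of a described list; some are not reported here. Gene positions are from GENCODE vM21 and promoters from RefSeq. Alternatives used DESeq2 1.42.0 and other scalings, filters, options and library sets.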

Additional observations from a re-analysis of the deposited data

Results flagged for a closer look

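The response to 4OHT differed between the clones, by the test of clone 4 minus clone 8 at an adjusted p under 0.05, for 519 genes; the genes named in the results that passed are given here, as differences on the log2 scale. Genes named for their clone 4 response were chosen by a value that is part of this difference. Among the called genes the differences were 2.16 for Fgfr3, 3.29 for Slc7a9, 3.31 for Tbx3, 3.55 for Cldn2, 3.76 for Klb, 3.80 for 2210011C24Rik and 3.87 for Slc13a4. In clone 8, Slc13a4 had a log2 fold change of -1.49, Slc7a9 of -1.40, Klb of -1.21, 2210011C24Rik of -1.18 and Cldn2 of -1.06, whereas Tbx3 had -0.43 and Fgfr3 0.19.

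Transcription factors and other genes with large differences in clone 4 also passed, with 4.39 for Hnf4a, 4.21 for Creb3l3, 4.07 for Car7 and 3.90 for Tfec. The secreted carriers differed by 3.76 (Fgb), 3.67 (Ttr), 3.53 (Apom), 2.35 (Mttp) and 2.20 (Apoe). The uptake and vesicle genes differed by 3.40 (Rab17), 3.33 (Amn), 2.99 (Cubn), 2.83 (Dpp4), 2.01 (Ctsb) and 1.91 (Ctsz). Matrix and metabolic genes differed by 1.97 (Col4a2), 1.96 (Serpinh1), 1.82 (Col4a1), 1.40 (Sparc), 1.53 (Ebp) and 1.46 (H19). Each of these genes had a log2 fold change above 0 in clone 4 and below 0 in clone 8.

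Below 0, the difference was -3.42 for Hand1, -3.26 for Fos, -2.75 for Bmp8b, -2.66 for Fosl1, -1.85 for Esrrb, -1.25 for Etv1 and -0.88 for Slc2a1. Of these, Esrrb had a log2 fold change above 0 in both clones, 0.19 in clone 4 and 2.04 in clone 8. Hand1, Fos, Bmp8b, Fosl1, Etv1 and Slc2a1 were below 0 in clone 4 and above 0 in clone 8. The response of Hand1 in clone 4 was -0.33 without vehicle replicate 1.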

How the results depend on the processing

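The number of genes higher in clone 4, 7 in the reported fit, was 566 with no expression filter, 382 by DESeq2, 183 in the clone 4 libraries alone, 73 with at least 10 counts in every library, 16 with the legacy option off, 11 on thinned counts, 5 with library totals, 5 with the robust option, and 0 at an adjusted p under 0.01 and with the replicate number as a block. The number lower, 0 in the reported fit (674 at an unadjusted p under 0.05), was 162, 86, 14 and 5 under the first 4 of these. For the difference between clones, 519 became 2114 with no expression filter, 1864 by DESeq2 and 0 at an adjusted p under 0.01, and was 451 under the block. Leaving out 1 library gave 0 to 250 higher, 0 to 19 lower and 0 to 1205 for the difference between clones. The cause of these shifts was not tested. No pairing entered the reported fit: deviations of same-numbered libraries correlated at 0.0947 in clone 4 and -0.0101 in clone 8.

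Of 90 named genes, 87 kept their direction in every alternative. Leaving out 1 library gave log2 fold changes of -0.75 to 0.40 for Lefty1 (above 0, at 0.09, without vehicle replicate 2 of clone 4 and, at 0.40, without 4OHT replicate 2), -0.12 to 0.21 for Apoc1 (below 0 without 4OHT replicate 2) and -0.21 to 0.17 for Stra6 (above 0 without vehicle replicate 1). Of 27 list medians followed, 21 kept their sign. The other 6 were those of feedback inhibitors, the Ras to ERK cascade (0.05, and -0.03 without vehicle replicate 2), extraembryonic ectoderm, formative genes, streak genes (also -0.08 on thinned counts) and blood and endothelium. With every library thinned to the smallest total, all 7 calls passed.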
